A study of Homo sapiens with 8 samples.

Results

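The genes described here encode the subunits of the nuclear RNA polymerases I, II and III. They were taken as the rows of the deposited expression table whose symbol is POLR1, POLR2 or POLR3 followed by a letter, without the pseudogene POLR2J4, which left 30 genes of 25906 in the table. All 30 reached 1 FPKM (fragments per kilobase of transcript, scaled to a fixed number of mapped fragments) or more in all 8 libraries, so the filter of 1 FPKM in 2 libraries removed none of them. RNA was sequenced from MM.1S and NCI-H929, established human cell lines of multiple myeloma, a cancer of plasma cells, 72 hours after lentiviral transduction with a CTBP2 expression vector (CTBP2) or the empty vector (EV). The groups were MM.1S CTBP2, MM.1S EV, NCI-H929 CTBP2 and NCI-H929 EV, with 2 libraries each that the study's design text calls biological duplicates. CTBP2 encodes a transcriptional corepressor, and the comparison asks which transcripts differ when it is expressed at a high level.

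Pol I transcribes the ribosomal RNA precursor in the nucleolus, Pol II transcribes messenger RNAs, and Pol III transcribes transfer RNAs, the 5S ribosomal RNA and other short RNAs. Each is built around a pair of large catalytic subunits (POLR1A and POLR1B, POLR2A and POLR2B, POLR3A and POLR3B). POLR2E, POLR2F, POLR2H, POLR2K and POLR2L are shared by all 3 enzymes, and POLR1C and POLR1D are shared by Pol I and Pol III, where they form an assembly platform. Growing cells make much of their RNA with Pol I and Pol III, and MYC, a transcription factor named in the series title, is known to raise the output of both.

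The line of 2 libraries could not be taken from their labels. In the library carrying the label NCI-H929 CTBP2 replicate 2, 60.7 FPKM were measured of CCND2, which MM.1S expresses, and 0.0399 FPKM of FGFR3, which NCI-H929 expresses. The opposite held for the one labelled MM.1S CTBP2 replicate 2, with 0.0582 FPKM of CCND2 and 22.2 FPKM of FGFR3. Line was therefore read from these genes (CCND2 or FGFR3 above 10 FPKM), and vector from the labels, which CTBP2 itself followed (1621 to 5884 FPKM in the 4 CTBP2 libraries and 0.148 to 0.213 FPKM in the 4 EV libraries). Below, MM.1S-type CTBP2 libraries means MM.1S CTBP2 replicate 1 followed by the one labelled NCI-H929 CTBP2 replicate 2. H929-type CTBP2 libraries means NCI-H929 CTBP2 replicate 1 followed by the one labelled MM.1S CTBP2 replicate 2. The EV libraries lay with their labels. All 8 plasma cell markers examined were at 1 FPKM or more in some library, with summed levels of 1700 to 2518 FPKM in CTBP2 libraries and 2375 to 3469 FPKM in EV libraries. Of 4 T cell markers in the table only CD3E reached 1 FPKM, while CD2, CD3D and CD3G did not, and the summed level was 2.62 to 54.4 FPKM in CTBP2 libraries and 0.544 to 3.70 FPKM in EV libraries. Of 4 myeloid markers only ITGAM reached 1 FPKM (0.165 to 4.14 FPKM in CTBP2 libraries and 0 to 0.218 FPKM in EV libraries), and of 4 fibroblast and epithelial markers only EPCAM (0.180 to 1.27 FPKM in CTBP2 libraries and 0.0317 to 0.217 FPKM in EV libraries). The part of these markers in the results was not tested. In bulk RNA, fewer cells of a type and less RNA per cell cannot be told apart.

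With both lines together, 14 of the 30 subunit genes fell with CTBP2, POLR3GL rose and 15 did not pass (limma with Benjamini-Hochberg adjusted p under 0.05 over all 12583 genes tested). Of all genes tested, 34.1% were called, 16.7% lower and 17.4% higher. The median log2 fold change was -0.41 over the 30 subunit genes and 0.035 over all genes tested, on the log2(FPKM + 1) scale used for every fold change here. By the median of each group, Pol I-only subunits had the lowest fold changes and Pol II-only subunits the ones nearest to 0. These medians depend on which genes a group holds. The Pol II-only group includes POLR2J2 and POLR2J3, copies of POLR2J, and POLR2M, no core subunit, at 0.15, 0.23 and 0.094. Without them its middle gene was POLR2C, at -0.36. The Pol I-only group leaves out CD3EAP, TWISTNB and ZNRD1, Pol I subunits under other symbols, at -0.82, -0.50 and 0.0092. The median was -0.81 over the 3 Pol I-only genes, of which 2 fell, -0.73 over the 2 genes shared by Pol I and III, which both fell, and -0.42 over the 5 genes shared by all 3 enzymes, of which 3 fell. It was -0.43 over the 10 Pol III-only genes, of which 4 fell and 1 rose, and -0.16 over the 10 Pol II-only genes, of which 3 fell. Taken library by library without any threshold, 10 of the 30 genes had all 4 CTBP2 libraries below all 4 EV libraries, against 7.45% of all genes tested, and 0 had all 4 above, against 7.21%. In 17 of the 30 the CTBP2 libraries lay below the EV libraries of the same line in both lines, against 19.9% of all genes tested, and in 1 (POLR3GL) above, against 21.4%. Summed FPKM was itself lower in each CTBP2 library (459733 to 544210) than in each EV library (547097 to 659837). Statements on overlap of libraries, here and below, are of the deposited values and were not repeated under other scalings.

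**Figure D1:**
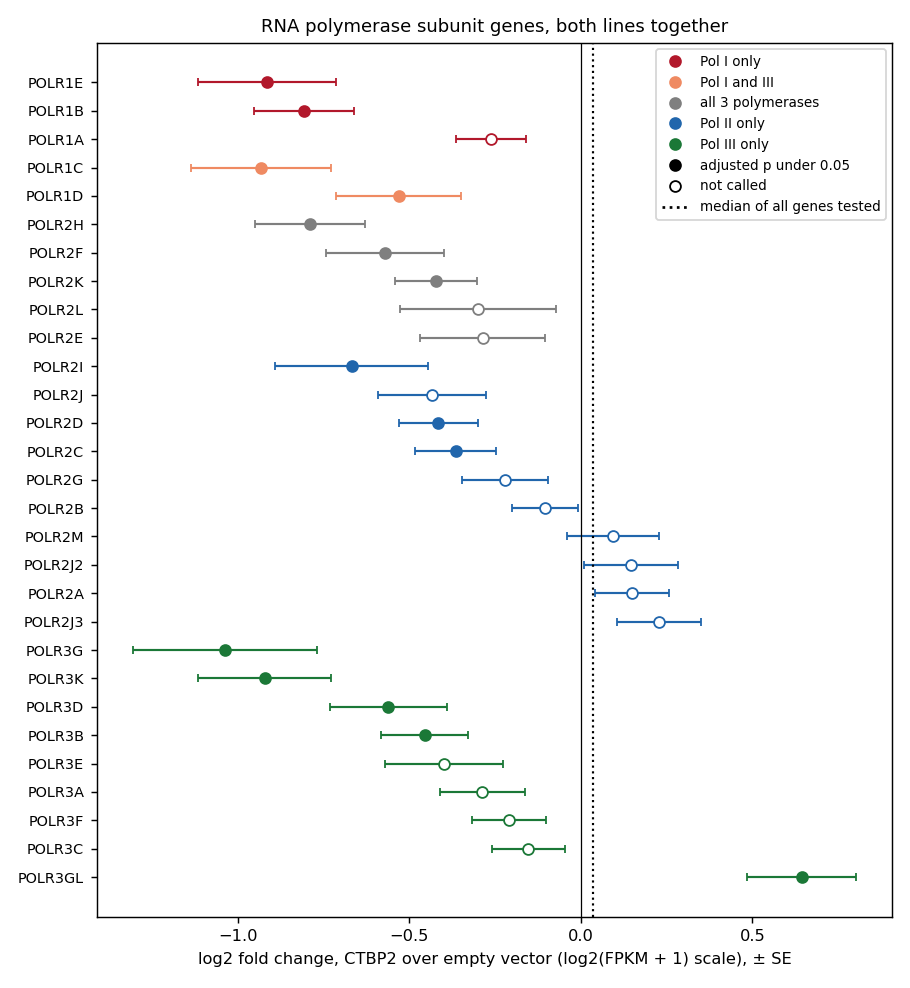
Log2 fold change of CTBP2 over empty vector (x axis, log2(FPKM + 1) scale) for the subunit genes reported by name, grouped by the enzyme that holds them, with bars for 1 SE from limma and 8 libraries. Filled points have an adjusted p under 0.05; 14 filled points lie left of 0 and POLR3GL alone lies right of it, and the dotted line marks the median of all genes tested, 0.035.

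These counts rested on the scaling and on single libraries. With library totals made equal after leaving out immunoglobulin genes and CTBP2, the median of all genes moved to 0.27, and 6 subunit genes were called lower (POLR1B, POLR1C, POLR1E, POLR2H, POLR3G and POLR3K) and 3 higher (POLR3GL, POLR2A and POLR2J3). Relative to the median of all genes under that scaling, the Pol I-only median was -0.81, the Pol III-only median -0.42 and the Pol II-only median -0.14, against -0.84, -0.46 and -0.20 as deposited. Under quantile normalization these medians were -0.78, -0.36 and 0.048, so the Pol II-only median changed sign there. The count of 15 called genes was 10 in the 6 libraries left without both labelled CTBP2 replicate 2 (9 lower and POLR3GL higher), where 13.7% of genes were called lower and 11.6% higher. It was 1 (POLR1E, lower) with line as labelled, where 1.81% of genes were called lower and 1.53% higher. Leaving out 1 library, it was 7 without MM.1S CTBP2 replicate 1, 9 with the one labelled MM.1S CTBP2 replicate 2 left out, 8 without MM.1S EV replicate 2, 7 without NCI-H929 EV replicate 1 and 6 without NCI-H929 EV replicate 2. POLR1B, POLR1C, POLR1E, POLR2H, POLR3K and POLR3GL were called under all 17 alternatives that kept line as read from expression.

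The promoters of 5 subunit genes are shown to let the sequences upstream of called and uncalled genes be compared, since many members moved together. Of the 30 genes, 21 had a promoter in the RefSeq table for GRCh38.p14, 250 bases before to 50 bases after a transcript start. CACGTG, a palindrome known as the canonical E-box and bound by MYC with its partner MAX, was searched there, with GGGCGG, the GC box, on both strands. CACGTG occurred in the promoters of 3 of the 21 genes (POLR3A, POLR3C and POLR3E, none of them called in both lines together, and POLR3A and POLR3E called lower in NCI-H929 alone), in 0 of 9 genes that fell and in 7.26% of the 35116 promoters of the table. GGGCGG occurred in 76.2% of the 21 genes and in 45.0% of all promoters. A subunit gene was counted when any of its listed starts held the motif (27 starts for the 21 genes). The shares of all promoters count each start singly, so the units are unlike. The CACGTG share of the subunit genes is raised by this, since only 1 of the 2 listed POLR3C starts held it. The GGGCGG share is not raised, since each gene with 2 listed starts held it at both or, for POLR2F, at neither. POLR1B (chr2:112541786-112542085, plus strand) and POLR2H (chr3:184361460-184361759, plus strand) had the smallest p among members without CACGTG, and each is shown at the lower-coordinate start of 2 listed. POLR3E (chr16:22297159-22297458, plus strand) and POLR3A (chr10:78029466-78029765, minus strand) had the smallest p among those with it, and POLR3GL (chr1:145964440-145964739, plus strand) was added as the gene that rose. Each is written 5′ to 3′ in the direction of transcription, with CACGTG and GGGCGG or its reverse complement CCGCCC in capitals; the motifs share 0 bases in these 5 promoters. The table's annotation gives GRCh38.p14 starts, while the expression values were made on another build.
POLR1B: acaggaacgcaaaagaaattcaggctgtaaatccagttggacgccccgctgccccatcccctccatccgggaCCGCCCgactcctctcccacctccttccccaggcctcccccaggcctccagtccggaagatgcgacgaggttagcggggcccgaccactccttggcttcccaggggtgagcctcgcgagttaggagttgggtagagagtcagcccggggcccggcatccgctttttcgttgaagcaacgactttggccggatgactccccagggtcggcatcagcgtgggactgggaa
POLR2H: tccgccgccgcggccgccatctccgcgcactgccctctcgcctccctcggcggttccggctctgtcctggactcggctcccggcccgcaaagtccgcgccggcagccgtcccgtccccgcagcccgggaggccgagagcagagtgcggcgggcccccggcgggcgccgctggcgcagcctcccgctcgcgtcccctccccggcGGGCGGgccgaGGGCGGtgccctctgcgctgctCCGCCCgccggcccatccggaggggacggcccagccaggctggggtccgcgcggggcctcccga
POLR3E: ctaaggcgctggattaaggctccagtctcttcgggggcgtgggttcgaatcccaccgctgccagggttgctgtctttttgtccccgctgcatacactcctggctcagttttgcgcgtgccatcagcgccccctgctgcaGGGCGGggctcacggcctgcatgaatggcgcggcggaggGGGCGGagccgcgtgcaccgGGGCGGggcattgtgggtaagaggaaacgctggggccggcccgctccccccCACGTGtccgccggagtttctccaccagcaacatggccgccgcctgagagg
POLR3A: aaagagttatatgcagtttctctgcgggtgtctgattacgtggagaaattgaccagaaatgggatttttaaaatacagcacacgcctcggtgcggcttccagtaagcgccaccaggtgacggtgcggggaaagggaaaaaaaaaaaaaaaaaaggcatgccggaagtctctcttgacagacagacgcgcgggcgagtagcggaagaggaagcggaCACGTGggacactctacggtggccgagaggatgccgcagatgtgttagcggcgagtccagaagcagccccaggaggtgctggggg
POLR3GL: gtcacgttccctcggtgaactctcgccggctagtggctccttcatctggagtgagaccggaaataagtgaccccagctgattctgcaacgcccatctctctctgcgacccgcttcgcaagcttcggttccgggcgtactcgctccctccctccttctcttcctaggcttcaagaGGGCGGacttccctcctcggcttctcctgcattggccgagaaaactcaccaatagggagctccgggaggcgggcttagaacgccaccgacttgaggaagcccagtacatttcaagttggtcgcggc
POLR2H had 3 GC boxes in this window and POLR1B and POLR3GL 1 each, so the gene that rose and a gene that fell were alike in this count. POLR3E had 3 GC boxes with CACGTG at the start site, and POLR3A had CACGTG 35 bases before it and 0 GC boxes.

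POLR1B, the second largest Pol I subunit and part of its active centre, fell with CTBP2 over both lines. It was at 9.66 and 11.2 FPKM in MM.1S-type CTBP2 libraries and at 6.83 and 5.88 FPKM in H929-type CTBP2 libraries, against 16.0 and 14.4 FPKM in MM.1S EV and 15.3 and 14.4 FPKM in NCI-H929 EV. All 4 CTBP2 libraries lay below all 4 EV libraries, and the EV libraries of the lines lay close together. The mean was 8.39 ± 2.46 FPKM with CTBP2 and 15.0 ± 0.767 FPKM with EV (SD, n = 4 each), and the log2 fold change was -0.81 (± 0.15 SE, adjusted p by limma = 0.00611; adjusted p = 0.00975 in the 6 libraries). POLR1E, the Pol I subunit PAF53, was at 8.68 and 12.4 FPKM in MM.1S-type CTBP2 libraries and at 12.8 and 9.68 FPKM in H929-type CTBP2 libraries, against 16.1 and 16.1 FPKM in MM.1S EV and 34.7 and 22.1 FPKM in NCI-H929 EV. The CTBP2 libraries of the lines overlapped, and all 4 were below every EV library. Its log2 fold change was -0.91 (± 0.20 SE, adjusted p by limma = 0.0106), and it also passed with line as labelled (adjusted p = 0.0451).

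POLR1A, the largest Pol I subunit, did not pass. It was at 6.26 and 6.97 FPKM in MM.1S-type CTBP2 libraries and at 5.01 and 5.02 FPKM in H929-type CTBP2 libraries, against 8.66 and 7.57 FPKM in MM.1S EV and 6.39 and 6.09 FPKM in NCI-H929 EV. Within each line its CTBP2 libraries lay below its EV libraries, but across lines the groups overlapped. The log2 fold change was -0.26 (95% interval -0.49 to -0.034, limma adjusted p = 0.0706), and it passed under the median-of-ratios and quantile scalings. Whether its fold change differs from that of POLR1B was not tested.

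The platform subunits that Pol I and Pol III share both fell. POLR1C was at 16.3 and 20.7 FPKM in MM.1S-type CTBP2 libraries and at 15.0 and 11.6 FPKM in H929-type CTBP2 libraries, against 22.5 and 31.9 FPKM in MM.1S EV and 38.5 and 31.8 FPKM in NCI-H929 EV. No CTBP2 library reached the lowest EV library, and the log2 fold change was -0.93 (± 0.20 SE, adjusted p by limma = 0.0104; 0.0136 in the 6 libraries). POLR1D was at 25.9 to 38.9 FPKM over the 4 CTBP2 libraries and at 39.4 to 66.0 FPKM over the 4 EV libraries. The groups did not overlap, but with a log2 fold change of -0.53 (± 0.18 SE, adjusted p by limma = 0.0494) POLR1D lay at the threshold and did not pass in the 6 libraries (adjusted p = 0.128). POLR2C and POLR2J form the counterpart of this pair in Pol II. POLR2C fell to 28.8 ± 3.34 FPKM with CTBP2, against 37.3 ± 2.80 FPKM with EV (SD, n = 4 each; log2 fold change -0.36, limma adjusted p = 0.041), and did not pass in the 6 libraries (adjusted p = 0.0846). POLR2J had 47.8 ± 11.3 FPKM with CTBP2 and 64.5 ± 13.4 FPKM with EV (SD, n = 4 each; log2 fold change -0.43, limma adjusted p = 0.0588).

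**Figure D2:**
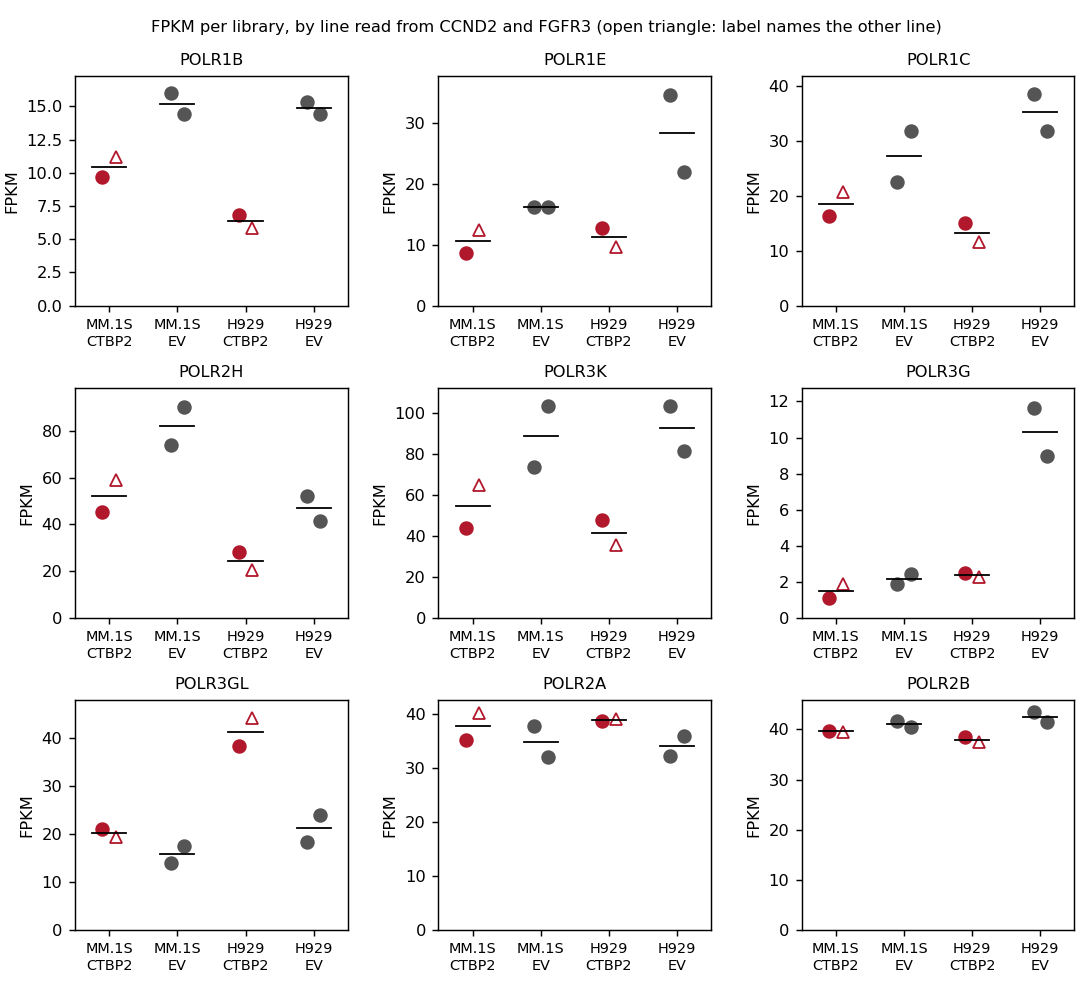
FPKM in each library (y axis, from 0) for 9 subunit genes, with columns for MM.1S and NCI-H929 (H929) libraries with CTBP2 and with EV by line read from expression, bars at the mean of 2 libraries and open triangles for the 2 libraries whose label names the other line. POLR1B, POLR1E, POLR1C and POLR3K have all CTBP2 points below all EV points, POLR3G is high in NCI-H929 EV alone (11.6 and 8.97 FPKM), POLR3GL is highest in H929-type CTBP2 libraries, and POLR2A and POLR2B differ little between the groups.

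Of the 5 subunits common to all 3 enzymes, POLR2H, POLR2F and POLR2K fell and POLR2E and POLR2L did not pass. POLR2H was at 45.3 and 59.0 FPKM in MM.1S-type CTBP2 libraries and at 28.2 and 20.3 FPKM in H929-type CTBP2 libraries, against 73.9 and 90.4 FPKM in MM.1S EV and 52.3 and 41.4 FPKM in NCI-H929 EV. The lines differed in level, so the groups overlapped across lines, but within each line both CTBP2 libraries were the lower ones (log2 fold change -0.79, ± 0.16 SE, limma adjusted p = 0.00834). POLR2F was at 13.2 to 21.3 FPKM over the CTBP2 libraries and at 22.6 to 33.5 FPKM over the EV libraries, with no overlap, at a log2 fold change of -0.57 (± 0.17 SE, adjusted p by limma = 0.0318; 0.106 in the 6 libraries). POLR2K was at 22.7 and 29.6 FPKM in MM.1S-type CTBP2 libraries and at 51.2 and 47.8 FPKM in H929-type CTBP2 libraries, against 35.0 and 39.2 FPKM in MM.1S EV and 63.0 and 63.2 FPKM in NCI-H929 EV. As with POLR2H, the groups were apart within each line only (log2 fold change -0.42, ± 0.12 SE, adjusted p by limma = 0.0249). Under equal totals the log2 fold change of POLR2K was -0.13, and it did not pass (adjusted p by limma = 0.43). POLR2L, the most abundant of the 30 transcripts per length in both groups, had 97.8 ± 29.3 FPKM with CTBP2 and 117.8 ± 19.9 FPKM with EV (SD, n = 4 each), and its interval of log2 fold change was -0.81 to 0.21. POLR2E had 61.4 ± 11.8 FPKM with CTBP2 and 75.1 ± 13.6 FPKM with EV (SD, n = 4 each), with an interval of -0.70 to 0.12.

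The catalytic subunits of Pol II stood close to the level of the EV libraries. POLR2A, the largest subunit, whose C-terminal repeats couple transcription to RNA processing, was at 35.3 and 40.17 FPKM in MM.1S-type CTBP2 libraries and at 38.7 and 39.1 FPKM in H929-type CTBP2 libraries, against 37.7 and 32.0 FPKM in MM.1S EV and 32.3 and 36.0 FPKM in NCI-H929 EV. Its log2 fold change was 0.15 (95% interval -0.10 to 0.40, limma adjusted p = 0.299). POLR2B was at 37.4 to 39.7 FPKM over the CTBP2 libraries and at 40.5 to 43.4 FPKM over the EV libraries. These ranges did not overlap, yet the difference was small, at a log2 fold change of -0.10 (95% interval -0.32 to 0.11, limma adjusted p = 0.414). Its sign turned under equal totals, to 0.19, and POLR2A was called higher there, at 0.44.

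Among the smaller Pol II-only subunits, POLR2D, POLR2I and POLR2C fell. POLR2D, which forms the stalk of Pol II with POLR2G, was at 22.8 and 24.6 FPKM in MM.1S-type CTBP2 libraries and at 18.5 and 23.8 FPKM in H929-type CTBP2 libraries, against 32.4 and 33.2 FPKM in MM.1S EV and 25.8 and 29.4 FPKM in NCI-H929 EV. The groups did not overlap (log2 fold change -0.42, ± 0.11 SE, adjusted p by limma = 0.0231; 0.0249 in the 6 libraries). Its partner POLR2G did not pass, at 46.3 ± 5.97 FPKM with CTBP2 and 53.9 ± 3.54 FPKM with EV (SD, n = 4 each; log2 fold change -0.22, limma adjusted p = 0.189). POLR2I, a subunit at the jaw of the enzyme involved in transcript fidelity, was at 25.9 and 34.3 FPKM in MM.1S-type CTBP2 libraries and at 37.9 and 17.9 FPKM in H929-type CTBP2 libraries, against 39.0 and 43.8 FPKM in MM.1S EV and 53.9 and 44.3 FPKM in NCI-H929 EV. The groups did not overlap, but the H929-type CTBP2 libraries were far apart, and the log2 fold change was -0.67 (± 0.22 SE, adjusted p by limma = 0.0449; 0.0448 in the 6 libraries). None of the 3 Pol II-only falls passed under quantile normalization or equal totals. This was not particular to Pol II-only genes. POLR1D, POLR2F, POLR2K and POLR3D also lost their calls under both scalings, and POLR3B under equal totals. POLR2J2 and POLR2J3, near-identical copies of POLR2J whose reads may be split between them, and POLR2M, a protein that associates with Pol II and is no core subunit, had log2 fold changes of 0.15, 0.23 and 0.094 and did not pass.

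Among the Pol III-only genes, POLR3K, POLR3G, POLR3B and POLR3D fell, POLR3GL rose, and the others, POLR3A, POLR3C, POLR3E and POLR3F among them, did not pass. POLR3K, a small subunit needed for transcript cleavage and termination, was at 44.1 and 65.1 FPKM in MM.1S-type CTBP2 libraries and at 47.6 and 35.4 FPKM in H929-type CTBP2 libraries, against 73.8 and 103.7 FPKM in MM.1S EV and 103.6 and 81.8 FPKM in NCI-H929 EV. Every CTBP2 library was below every EV library, and the log2 fold change was -0.92 (± 0.19 SE, adjusted p by limma = 0.00922; 0.00987 in the 6 libraries). POLR3B, the second largest subunit, was at 4.16 and 4.66 FPKM in MM.1S-type CTBP2 libraries and at 5.48 and 4.94 FPKM in H929-type CTBP2 libraries, against 5.78 and 5.02 FPKM in MM.1S EV and 9.39 and 8.35 FPKM in NCI-H929 EV. It was apart within each line, widely in NCI-H929 and narrowly in MM.1S, with a log2 fold change of -0.45 (± 0.13 SE, adjusted p by limma = 0.0241; 0.0557 in the 6 libraries). POLR3D, which with POLR3E forms a dimer resembling an initiation factor of Pol II, was at 16.8 and 18.5 FPKM in MM.1S-type CTBP2 libraries and at 29.8 and 23.2 FPKM in H929-type CTBP2 libraries, against 19.5 and 21.8 FPKM in MM.1S EV and 56.5 and 44.7 FPKM in NCI-H929 EV. Its CTBP2 libraries were below the EV libraries of the same line in both lines, and most of the change lay in NCI-H929 (log2 fold change over both lines -0.56, ± 0.17 SE, adjusted p by limma = 0.0321; 0.0594 in the 6 libraries).

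POLR3A, the largest Pol III subunit, was at 5.25 and 5.41 FPKM in MM.1S-type CTBP2 libraries and at 5.77 and 5.84 FPKM in H929-type CTBP2 libraries, against 6.22 and 5.30 FPKM in MM.1S EV and 9.24 and 7.83 FPKM in NCI-H929 EV. The CTBP2 libraries of the lines were alike, and the EV libraries of NCI-H929 were the high ones (log2 fold change -0.29, 95% interval -0.57 to -0.0078, limma adjusted p = 0.0972). POLR3E had a log2 fold change of -0.40, and POLR3F and POLR3C, which belong to the initiation subcomplex, had -0.21 and -0.15. Per length, the POLR2A transcript was 5.63 to 7.79 times the POLR1A transcript in CTBP2 libraries and 4.22 to 5.91 times in EV libraries. Across lines these ranges overlapped, but within each line both CTBP2 libraries had the higher ratio. It was 5.63 and 5.76 in MM.1S-type CTBP2 libraries, against 4.35 and 4.22 in MM.1S EV. In H929-type CTBP2 libraries it was 7.72 and 7.79, against 5.05 and 5.91 in NCI-H929 EV. The ratio of POLR2A to POLR3A was 6.69 to 7.42 in CTBP2 libraries and 3.49 to 6.07 in EV libraries, and these ranges did not overlap.

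POLR3G and POLR3GL encode alternative versions of the same Pol III subunit, so an enzyme holds either of them. POLR3G is known from stem cells and tumours, and POLR3GL from most differentiated tissues. They moved in opposite directions. POLR3G was at 1.12 and 1.87 FPKM in MM.1S-type CTBP2 libraries and at 2.48 and 2.27 FPKM in H929-type CTBP2 libraries, against 1.86 and 2.41 FPKM in MM.1S EV and 11.6 and 8.97 FPKM in NCI-H929 EV. Only the NCI-H929 EV libraries were high, and the MM.1S groups overlapped. The log2 fold change over both lines was -1.04 (± 0.27 SE, adjusted p by limma = 0.0185; 0.0171 in the 6 libraries), and it did not pass without the filter on low values, without NCI-H929 EV replicate 1 or without NCI-H929 EV replicate 2. POLR3GL was at 21.0 and 19.3 FPKM in MM.1S-type CTBP2 libraries and at 38.3 and 44.2 FPKM in H929-type CTBP2 libraries, against 14.0 and 17.5 FPKM in MM.1S EV and 18.4 and 23.9 FPKM in NCI-H929 EV. Both CTBP2 libraries were the higher ones within each line, with a log2 fold change of 0.64 (± 0.16 SE, adjusted p by limma = 0.0157; 0.0378 in the 6 libraries). POLR3G made up 4.89 to 8.84% of the FPKM of the pair in the 4 CTBP2 libraries, against 11.8 and 12.2% in MM.1S EV and 38.7 and 27.3% in NCI-H929 EV. The share in each CTBP2 library was below that in every EV library. The CTBP2 libraries of the lines overlapped in this share, and the EV libraries of the lines did not.

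**Figure D3:**
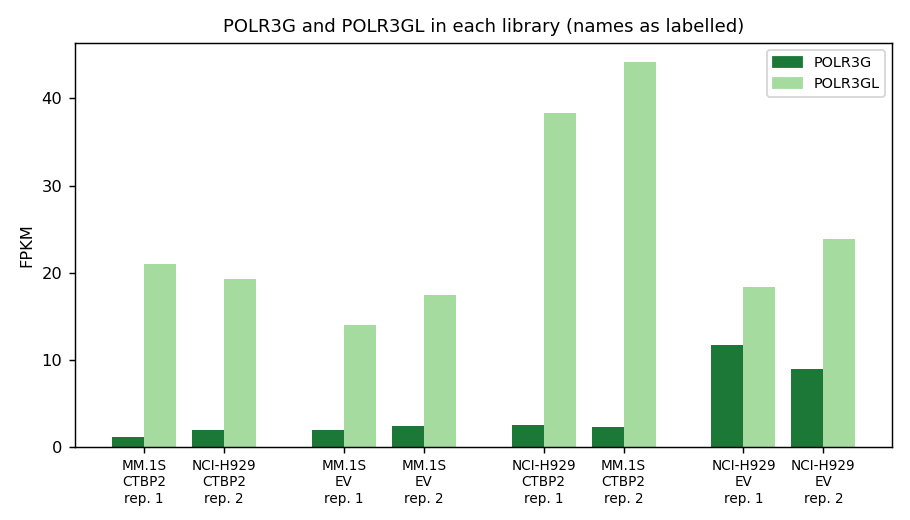
FPKM of POLR3G (dark bars) and POLR3GL (light bars) in each library, with names as labelled and libraries placed by the line read from expression, MM.1S on the left and NCI-H929 on the right. POLR3GL exceeds POLR3G in all 8 libraries, least in NCI-H929 EV, where the ratio is 1.58 and 2.66, and most, at 19.4, in the one labelled MM.1S CTBP2 replicate 2.

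In both lines most of the 30 genes had a log2 fold change below 0, 26 in MM.1S and 25 in NCI-H929. In NCI-H929, 12 subunit genes fell, POLR3GL rose and 17 did not pass, where 32.9% of all genes tested were called, 14.6% lower and 18.3% higher. The 12 were 7 of 10 Pol III-only genes (POLR3A, POLR3B, POLR3D, POLR3E, POLR3G and POLR3K among them), POLR1B and POLR1E, both POLR1C and POLR1D, and POLR2H, and 0 of 10 Pol II-only genes. Among the Pol II-only genes, POLR2C and POLR2I had an unadjusted p under 0.05, with limma adjusted p-values of 0.0584 and 0.0627. The deepest falls were those of POLR3G, POLR1C and POLR1E, with log2 fold changes of -1.73, -1.35 and -1.24 (limma adjusted p = 0.00161, 0.00489 and 0.00957). Under equal totals, 6 subunit genes were called lower and 3 higher in NCI-H929. The 13 calls became 5 in the 6 libraries, 6 with the one labelled MM.1S CTBP2 replicate 2 left out, 3 without NCI-H929 EV replicate 1 and 0 with line as labelled.

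In MM.1S none of the 30 genes passed by limma, where 5.47% of all genes tested were called, 1.8% lower and 3.67% higher, and 8 had an unadjusted p under 0.05, all 8 lower with CTBP2. Of all genes tested 26.9% had an unadjusted p under 0.05, both directions together, and the count of 8 is near that background. The share of all genes that were lower with such a p was not computed. The median log2 fold change over the 30 genes was -0.25 in MM.1S and -0.45 in NCI-H929, against 0 and 0.046 over all genes tested. POLR1B had the smallest p in MM.1S, at a log2 fold change of -0.50 (± 0.15 SE, adjusted p by limma = 0.0841), and POLR2F and POLR3K had the largest differences, at -0.71 and -0.70. In the 6 libraries POLR2F was called in MM.1S (adjusted p by limma = 0.0387), and 1 gene was called without NCI-H929 CTBP2 replicate 1 and 1 with the one labelled MM.1S CTBP2 replicate 2 left out.

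**Figure D4:**
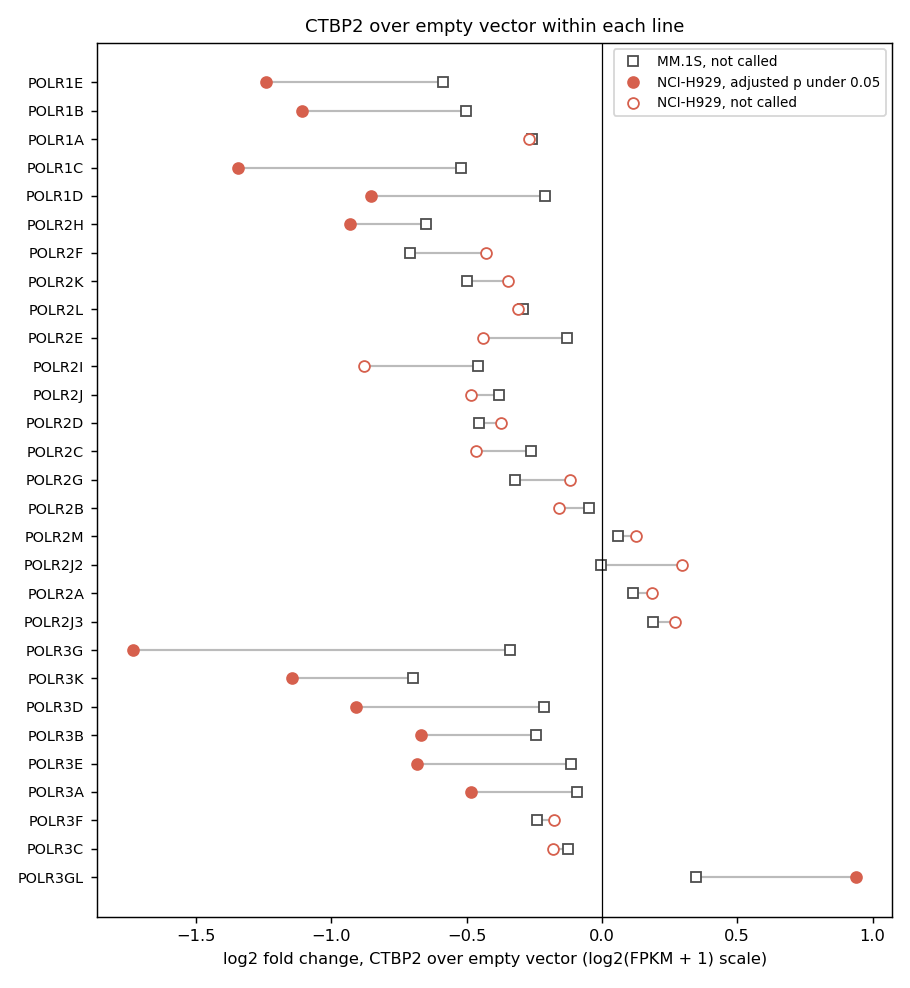
Log2 fold change of CTBP2 over empty vector (x axis, log2(FPKM + 1) scale) within MM.1S (squares) and within NCI-H929 (circles) for each subunit gene reported by name, with a line joining the pair and filled symbols for an adjusted p under 0.05. Filled circles are found in the Pol I and Pol III rows and at POLR2H, the 10 Pol II-only rows hold open symbols, and the widest gap is that of POLR3G, at -0.34 in MM.1S and -1.73 in NCI-H929.

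The difference between the lines was tested as an interaction, and none of the 30 genes passed by limma, where 1.26% of all genes tested were called (0.334% lower and 0.922% higher), and 5 had an unadjusted p under 0.05. This count too is near the background, since 15.4% of all genes tested had one. POLR3G came nearest, with an effect in NCI-H929 minus that in MM.1S of -1.39 (± 0.28 SE, adjusted p by limma = 0.0623). POLR1B and POLR1C had differences of -0.61 and -0.83 (limma adjusted p = 0.226 and 0.259), and POLR3GL 0.59 (limma adjusted p = 0.324). For none of these genes was a difference in response between the lines shown at the adjusted threshold.

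Medians by library differed in order between the CTBP2 libraries. For the Pol I-only genes, the median log2 difference from the EV mean of the line was -0.60 and -0.35 in MM.1S-type CTBP2 libraries and -1.02 and -1.20 in H929-type CTBP2 libraries, against 0.071 and -0.071 in MM.1S EV and 0.041 and -0.041 in NCI-H929 EV. For the Pol III-only genes it was -0.29 and -0.097 in MM.1S-type CTBP2 libraries and -0.55 and -0.76 in H929-type CTBP2 libraries, against values between -0.089 and 0.089 in the EV libraries. For the Pol II-only genes the 4 CTBP2 libraries lay between -0.21 and -0.12, against -0.065 to 0.065 in the EV libraries. This group includes POLR2J2, POLR2J3 and POLR2M, and its medians by library were not computed without them. Over both lines its median was -0.16, and without these genes its middle gene was POLR2C, at -0.36. The narrow range near the EV level therefore holds for the group as listed only. In each of the 4 CTBP2 libraries the Pol II-only median was closer to 0 than the Pol I-only median, and this order was not tested.

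**Figure D5:**
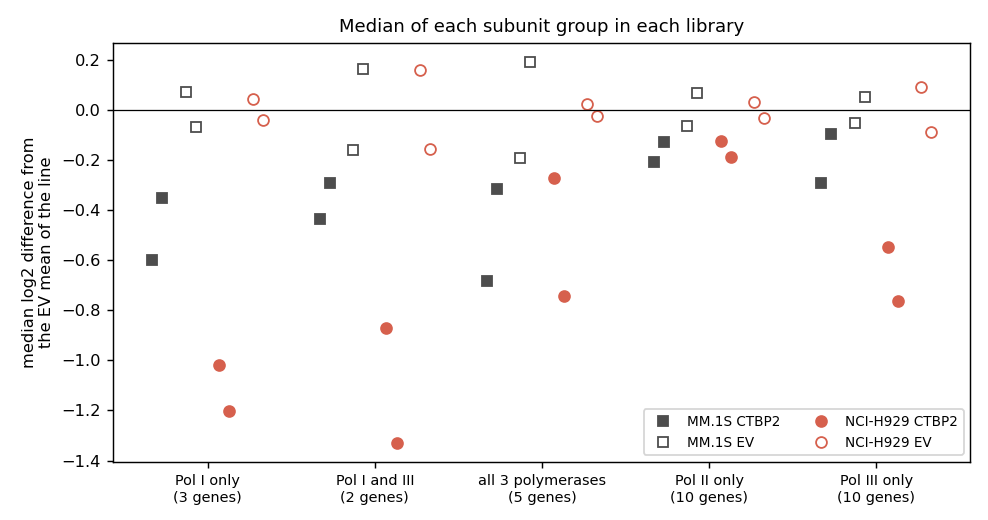
Median over the genes of each subunit group of the log2(FPKM + 1) difference from the mean of the EV libraries of the same line (y axis), for each library; filled symbols are CTBP2 and open symbols EV libraries, squares MM.1S and circles NCI-H929 by line read from expression. The H929-type CTBP2 libraries lie lowest for the Pol I-only genes and for the genes shared by Pol I and III, and all 4 CTBP2 libraries lie within -0.21 to -0.12 for the Pol II-only genes. The Pol II-only group includes POLR2J2, POLR2J3 and POLR2M, which are copies of POLR2J or no core subunit.

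The lines were also compared without CTBP2. In NCI-H929 EV against MM.1S EV, 7 subunit genes were higher, 4 were lower and 19 did not pass, where 50.8% of all genes tested were called, 22.1% higher and 28.7% lower, so the subunit genes were not called more often than other genes. Of the 7 higher genes, 5 were Pol III-only, namely POLR3A, POLR3B, POLR3C, POLR3D and POLR3G, and the others were POLR1E and POLR2K. POLR3G and POLR3D had the largest positive differences, at log2 fold changes of 1.84 and 1.25 (limma adjusted p = 0.000161 and 0.000757). POLR3F, the Pol III-only gene that went the other way, was at 3.40 and 2.81 FPKM in NCI-H929 EV and at 5.61 and 5.68 FPKM in MM.1S EV (log2 fold change -0.70, limma adjusted p = 0.00516). POLR2J3, POLR2J2 and POLR2H were the other genes lower in NCI-H929, at -1.33, -0.81 and -0.80. POLR2J3 was at 13.0 and 14.5 FPKM in NCI-H929 EV and at 33.0 and 39.3 FPKM in MM.1S EV, and since POLR2J, POLR2J2 and POLR2J3 share sequence, the split of reads among them is uncertain. Without MM.1S EV replicate 2 the count of 11 was 5. Of the 5 Pol III-only genes higher at baseline, POLR3G averaged 2.38 FPKM in H929-type CTBP2 libraries and 2.14 FPKM in MM.1S EV (n = 2 each). POLR3A, POLR3B, POLR3C and POLR3D averaged 5.81, 5.21, 19.0 and 26.5 FPKM in H929-type CTBP2 libraries, against 5.76, 5.40, 14.7 and 20.6 FPKM in MM.1S EV. These 5 genes were picked for being high in NCI-H929 EV against MM.1S EV. The same NCI-H929 EV libraries are the reference of the CTBP2 contrast in that line, so the selection itself favours lower values with CTBP2. A change towards the MM.1S EV level was not tested.

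The genes that work with the polymerases were taken from lists drawn up with earlier results of these data known, and their counts of lower genes stand against 16.7% called lower over all genes tested. Of the 4 subunits that the table lists under other symbols, CD3EAP (now POLR1G), the partner of POLR1E, and TWISTNB (now POLR1F), a stalk subunit of Pol I, fell, and ZNRD1 (now POLR1H) and CRCP, a stalk subunit of Pol III, did not pass. CD3EAP was at 9.50 and 12.9 FPKM in MM.1S-type CTBP2 libraries and at 6.44 and 7.80 FPKM in H929-type CTBP2 libraries, against 14.6 and 17.5 FPKM in MM.1S EV and 17.8 and 16.2 FPKM in NCI-H929 EV (log2 fold change -0.82, ± 0.17 SE, adjusted p by limma = 0.00865). Its groups did not overlap. TWISTNB had a log2 fold change of -0.50 (± 0.10 SE, adjusted p by limma = 0.00801), and ZNRD1 and CRCP had 0.0092 and -0.16. Of 7 Pol I initiation and termination factors 4 fell: TAF1D and TAF1B, subunits of the promoter selectivity factor SL1, RRN3, which recruits Pol I to the promoter, and TTF1, a termination factor, with log2 fold changes of -0.73, -0.42, -0.48 and -0.55. UBTF, the factor that marks active ribosomal RNA genes, had a log2 fold change of -0.060 and did not pass. The median over these 7 genes was -0.42, over all genes tested 0.035.

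Of 16 genes listed as initiation factors of Pol III or as its repressor MAF1, 2 fell, GTF3A, which binds the 5S ribosomal RNA gene, and GTF3C4, with log2 fold changes of -0.62 and -0.41, and the median was -0.18. GTF3A was at 45.7 and 55.8 FPKM in MM.1S-type CTBP2 libraries and at 32.4 and 34.1 FPKM in H929-type CTBP2 libraries, against 61.7 and 67.3 FPKM in MM.1S EV and 65.7 and 59.6 FPKM in NCI-H929 EV, with no overlap. MAF1, which represses Pol III when nutrients are short, had a log2 fold change of -0.19 and did not pass. Of 18 general initiation factors of Pol II, 4 fell: GTF2F2, a TFIIF subunit, GTF2H2 and GTF2H4, subunits of TFIIH, and GTF2A2, a TFIIA subunit, with log2 fold changes of -0.77, -0.62, -0.50 and -0.39 (median of the list -0.20). Neither list of 16 or 18 genes stood far from the 16.7% of all genes tested that were called lower. Of 9 polymerase assembly and import factors 5 fell, with a median of -0.46. GPN3, a GTPase needed for nuclear import of Pol II, URI1, RUVBL1 and RPAP3, parts of the chaperone machinery that builds the polymerases, had log2 fold changes of -0.94, -0.56, -0.92 and -0.46. Of the 3 mitochondrial genes, TFAM and TFB2M, transcription factors of the mitochondrial genome, fell by 0.55 and 0.71 on the log2 scale, and POLRMT, the mitochondrial RNA polymerase, did not pass at -0.40. No gene of these 6 lists was called higher with CTBP2, against 17.4% of all genes tested. Of their genes that fell, TAF1B and GTF3C4 did not pass in the 6 libraries. With line as labelled, GTF2F2 alone passed (limma adjusted p = 0.0498). The calls of these lists are given for the deposited scaling only.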

How the data were processed

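RNA of 8 libraries was sequenced from TruSeq libraries, per the labels' protocols. The values are FPKM as deposited by the authors for 25906 genes, a unit taken from the deposited table's name and its values. Per the submitters' processing notes, reads were handled with the aligner STAR (2.6.0b-1), the trimmer Trimmomatic (0.36.5), the counter HTSeq (0.9.1), the quality report FastQC (0.11.7) and DESeq2 (2.11.40.2) on GRCh37 (hg19); roles are the tools' usual ones. No source used here names the program that made the FPKM, its annotation or the use of strand, so reads of overlapping genes on opposite strands cannot be told apart.

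The spacing of low FPKM in genes with 1 transcript (lengths from GENCODE) put depth at 16000000 to 21000000 fragments per library; 53.4 to 63.5% of those values lay within 0.1 of a whole fragment (20.0% would by chance), so no counts were recovered and no counting interval is given.

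Genes with 1 FPKM or more in 2 libraries (12583) were analysed as log2(FPKM + 1), which understates changes of low genes, using R 4.3.3 and limma 3.58.1, whose eBayes step modelled a mean-variance trend, and Benjamini-Hochberg adjustment over all genes. The contrast over both lines used line and vector, and the others 1 mean per line and vector in the same 8 libraries. Line was read from CCND2 and FGFR3, so 2 libraries entered against their labels; the fit with line as labelled and the fit without these libraries are given beside the results. The code was tested on simulated data. Members, lists, tests and alternatives were chosen with earlier results of these data known.

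All members are named except 1, which is not reported here and enters only counts and medians. Values in every library are given for the 10 called members of smallest p, for POLR1A, POLR2A, POLR3A, POLR3G and POLR3GL, and for some others chosen after their values were seen; of each other list up to 4 called genes of smallest p are named, with 2 uncalled genes or fewer chosen after their values were seen. The GC box and the promoter of POLR3GL were also added after the values were seen. Alternatives tried were 3 other scalings, a pseudocount of 0.1, a filter of 5 FPKM or none, no variance trend, a replicate block, line as labelled, 6 libraries, and leaving out each library.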

Additional observations from a re-analysis of the deposited data

How the results depend on the processing

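In both lines together 15 subunit genes were called. The total called was 9 with totals made equal (immunoglobulin genes and CTBP2 set aside), of which 7 were among the 15 and POLR2A and POLR2J3 were not. It was 1 with line as labelled, and 6 to 16 with 1 library left out, where 6 to 14 of the 15 were among those called. In NCI-H929, 13 genes were called, against 0 with line as labelled, 5 in the 6 libraries without both labelled CTBP2 replicate 2, and 3 to 14 with 1 library left out. In MM.1S, 0 were called, against 1 in those 6 libraries and 0 to 1 with 1 library left out. For the difference between lines 0 were called under every setting, and for NCI-H929 EV against MM.1S EV 11, against 0 with line as labelled and 5 to 12 with 1 library left out. The remaining settings kept each count within 1.5 times, but these counts add both directions. In NCI-H929, equal totals gave 6 lower and 3 higher, against 12 lower and 1 higher as deposited. The median there was -0.061 over the subunit genes and 0.35 over all genes, against -0.45 and 0.046 as deposited. With the replicate block 12, 0, 12, 0 and 10 genes were called in these comparisons (both lines, MM.1S, NCI-H929, difference, baseline). The replicate numbers were not taken as pairs: deviations from group means correlated at -0.275 to 0.452 between replicate 2 libraries of different groups. None of the 13 genes with values in every library named by rule changed direction under the 18 alternatives. Among uncalled genes, the sign turned for POLR2B and POLR2G under quantile normalization, for POLR2B, POLR2E, POLR2G, POLR3C and POLR3F under equal totals, and for POLR2M with the one labelled MM.1S CTBP2 replicate 2 left out. Depth could only be estimated, so the counting error of low values, such as POLR3G in CTBP2 libraries, is not given.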
